A study of Mus musculus with 16 samples.

Results

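The genes described here were 44 mouse genes known to be imprinted, out of 54532 genes in the count table. They were chosen by name, and each name matched 1 gene. Total RNA had been sequenced from cells of the gonadal fat of female mice of the inbred strain C57BL/6. Control pups were left undisturbed and weaned on postnatal day 21, and stressed pups were separated from the dam daily from day 2 to day 16 and weaned on day 17. The animals were later fed a high-fat or a low-fat diet, and collagenase digestion followed by centrifugation, filtration and magnetic sorting gave a preadipocyte and a mature adipocyte fraction. For the high-fat diet, the preadipocyte libraries numbered 4 per treatment (control and stress) and the mature adipocyte libraries 3 per treatment, and 1 preadipocyte library per treatment came from the low-fat diet, which makes 16 libraries in 6 groups. The labels give neither the age at collection nor the sorting antibodies, and do not state whether each library is a different animal, so the p-values below rest on a spread between samples that may be technical.

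An imprinted gene is transcribed mainly from the chromosome inherited from the mother or mainly from the one inherited from the father, because a control region carries DNA methylation on one parental copy. Imprinted genes lie in clusters that share such a region, and several clusters contain long noncoding RNAs that act on their neighbours. Many act on fetal growth, and in fat tissue Dlk1 is known as an inhibitor of adipocyte differentiation and Mest as a gene that marks fat expansion in mice. The counts are not split by parental copy, and the mice are inbred, so the levels below say nothing about which copy was expressed.

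The 44 genes fall into 19 clusters, of which 11 hold more than 1 of them. By the origin usually given for the expressed copy, 13 are maternally expressed, 23 paternally expressed and 8 imprinted only in some tissues or isoforms. The Dlk1-Meg3 cluster spans 109452823 to 109749460 on chromosome 12 (GRCm38) and contributed 5 genes. The Mest cluster, with Mest, Copg2 and Klf14, lies at 30723547 to 30959078 on chromosome 6, and Nnat lies inside Blcap on chromosome 2 between 157556362 and 157571274.

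Promoters of 4 genes that differed between the fractions are shown because each holds the hexamer TGCCGC, the core of the motif bound by the imprint-protecting zinc finger protein ZFP57. Each is 1 unbroken RefSeq window (GRCm38.p6) on the plus strand, from 250 bases before to 50 after a transcript start, with matches of TGCCGC or of its reverse complement GCGGCA in capitals.
Meg3, chr12:109540746-109541045: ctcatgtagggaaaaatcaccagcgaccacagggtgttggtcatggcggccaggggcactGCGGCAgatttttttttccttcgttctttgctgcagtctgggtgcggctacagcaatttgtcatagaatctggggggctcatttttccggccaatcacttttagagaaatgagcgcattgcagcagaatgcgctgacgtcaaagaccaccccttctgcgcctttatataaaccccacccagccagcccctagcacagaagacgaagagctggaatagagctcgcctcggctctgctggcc
Mest, chr6:30737800-30738099: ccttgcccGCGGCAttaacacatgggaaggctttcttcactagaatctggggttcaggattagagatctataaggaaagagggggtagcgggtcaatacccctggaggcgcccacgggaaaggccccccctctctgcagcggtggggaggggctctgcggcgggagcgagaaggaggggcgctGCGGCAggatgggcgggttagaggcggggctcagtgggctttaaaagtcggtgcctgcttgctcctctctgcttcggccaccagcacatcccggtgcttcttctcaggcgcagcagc
Nnat, chr2:157559828-157560127: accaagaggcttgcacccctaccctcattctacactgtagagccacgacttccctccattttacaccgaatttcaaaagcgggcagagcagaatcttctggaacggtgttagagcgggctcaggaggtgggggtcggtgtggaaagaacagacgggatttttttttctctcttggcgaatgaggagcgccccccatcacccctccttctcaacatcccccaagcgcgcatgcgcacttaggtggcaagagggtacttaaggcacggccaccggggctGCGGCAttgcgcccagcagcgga
Zdbf2, chr1:63200108-63200407: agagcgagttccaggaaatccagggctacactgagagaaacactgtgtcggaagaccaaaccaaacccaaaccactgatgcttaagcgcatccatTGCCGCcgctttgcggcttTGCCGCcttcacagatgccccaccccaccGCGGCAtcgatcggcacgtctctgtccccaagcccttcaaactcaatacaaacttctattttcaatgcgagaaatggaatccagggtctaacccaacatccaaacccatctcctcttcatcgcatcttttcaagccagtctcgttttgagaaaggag
The Meg3 window held 13 CpG dinucleotides and 1 match, the Mest window 17 and 2, the Nnat window 17 and 1, and the Zdbf2 window 15 and 3. The Zdbf2 window lies upstream of the gene as the count table places it, which starts at 63273265. The Zdbf2 window at that start (63273019 to 63273318) held 38 CpG dinucleotides and 0 matches. A further window each of Meg3 (from 109545148) and Mest (from 30733256) also held 0 matches. The windows of Dlk1, Rian and Mirg, which differed between the fractions too, held 0 as well. A window of each of Commd1, Copg2, Grb10, Plagl1, Snrpn and Zim1, which also differed, held at least 1 match. So did a window of each of Igf2, Mcts2 and Nap1l5, which were not called or not tested. No window of Impact entered the count that follows. RefSeq windows of 36 of the 44 genes were counted, 53 windows in all, some of them overlapping. Of these, 14 (26.4%) held the hexamer, against 3813 of all 32851 promoter windows (11.6%), and the median number of CpG dinucleotides was 15 against 7. These matches describe the letters only, and neither methylation nor protein binding was measured.

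Genes of the same regions also contain miRNA hairpins. Mirg contains 14 of those listed in RefSeq, Rian 3 and Mest 1. Rtl1 contains 7, of which 1 is on its own strand. Mature sequences from the regions that differed most are shown with their seed, bases 2 to 8, in capitals, as RefSeq gives them (GRCm38.p6).
miR-127-3p, opposite Rtl1: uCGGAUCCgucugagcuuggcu
miR-136-5p, opposite Rtl1: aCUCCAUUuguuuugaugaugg
miR-370-3p, in Rian: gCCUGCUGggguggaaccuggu
miR-410-3p, in Mirg: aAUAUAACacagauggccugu
miR-335-5p, in Mest: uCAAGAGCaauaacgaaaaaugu
None of these 5 seeds is shared with another of them. Mature miRNAs were not quantified in the count table, so the values below belong to the genes named beside them. Rtl1, on the other strand, is not the host of miR-127-3p and miR-136-5p.

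Total counts per library ran from 14182130 to 23368821, and the 44 genes took 0.12% to 0.337% of them. Libraries 1 and 3 of the control high-fat preadipocytes hardly differed: 6.93% of genes differed between them beyond counting noise, against 43.9% to 78.6% in the other 17 pairs within groups, and they were counted as 1 sample, which leaves 3 control samples. Control adipocyte libraries 1 and 3 held few rarely counted genes: genes with 1 to 5 counts numbered 1.15 and 0.637 times those with 6 to 15 counts, against 1.55 to 2.23 in the others. Stress high-fat preadipocyte libraries 3 and 4 had summed macrophage marker levels of 7200 and 8270 CPM (counts scaled to a common library size), against 1490 to 4250 in the other high-fat preadipocyte libraries. Adipocyte and progenitor markers followed the labels. Mature adipocyte markers summed to 12800 to 37000 CPM in the adipocyte libraries and to 52.9 to 324 CPM in the preadipocyte libraries. Adipocyte progenitor markers summed to 811 to 1960 CPM against 13400 to 25800 CPM. No gene of either list was at 0 in any library. The fractions also differed in other cell types. At an adjusted p under 0.05 in edgeR, 9 of 10 endothelial markers were higher in mature adipocytes and 1 was lower. Their sums were 463 to 2460 CPM against 205 to 882 CPM. Of 10 mural markers, 4 were higher and 1 lower. All 8 mesothelial and all 6 B cell markers were lower, and of 10 macrophage markers 0 were higher and 1 lower. The part of these markers in the values of the imprinted genes was not tested.

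Of the 44 genes, 43 had at least 1 count and Magel2, a gene of the Snrpn-Ube3a cluster, had none in any library. Levels compared between genes are given as FPKM, the authors' fragment counts scaled by gene length and library size. On this scale the highest preadipocyte means were those of Impact, an inhibitor of the stress kinase GCN2 (45.1 ± 11 FPKM, SD, n = 7), and Igf2r, the receptor that clears the growth factor IGF2 (37.9 ± 5.89 FPKM). In mature adipocytes the highest mean was that of Nnat, a small membrane proteolipid of the endoplasmic reticulum (247 ± 254 FPKM, SD, n = 6), followed by Mest, an α/β hydrolase-fold protein (89.5 ± 85.0 FPKM). The SDs of both were about as large as their means. A mean of at least 10 FPKM was reached by 10 genes in high-fat preadipocytes and by 9 in mature adipocytes, and a mean under 1 FPKM was found for 13 and 18.

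**Figure D1:**
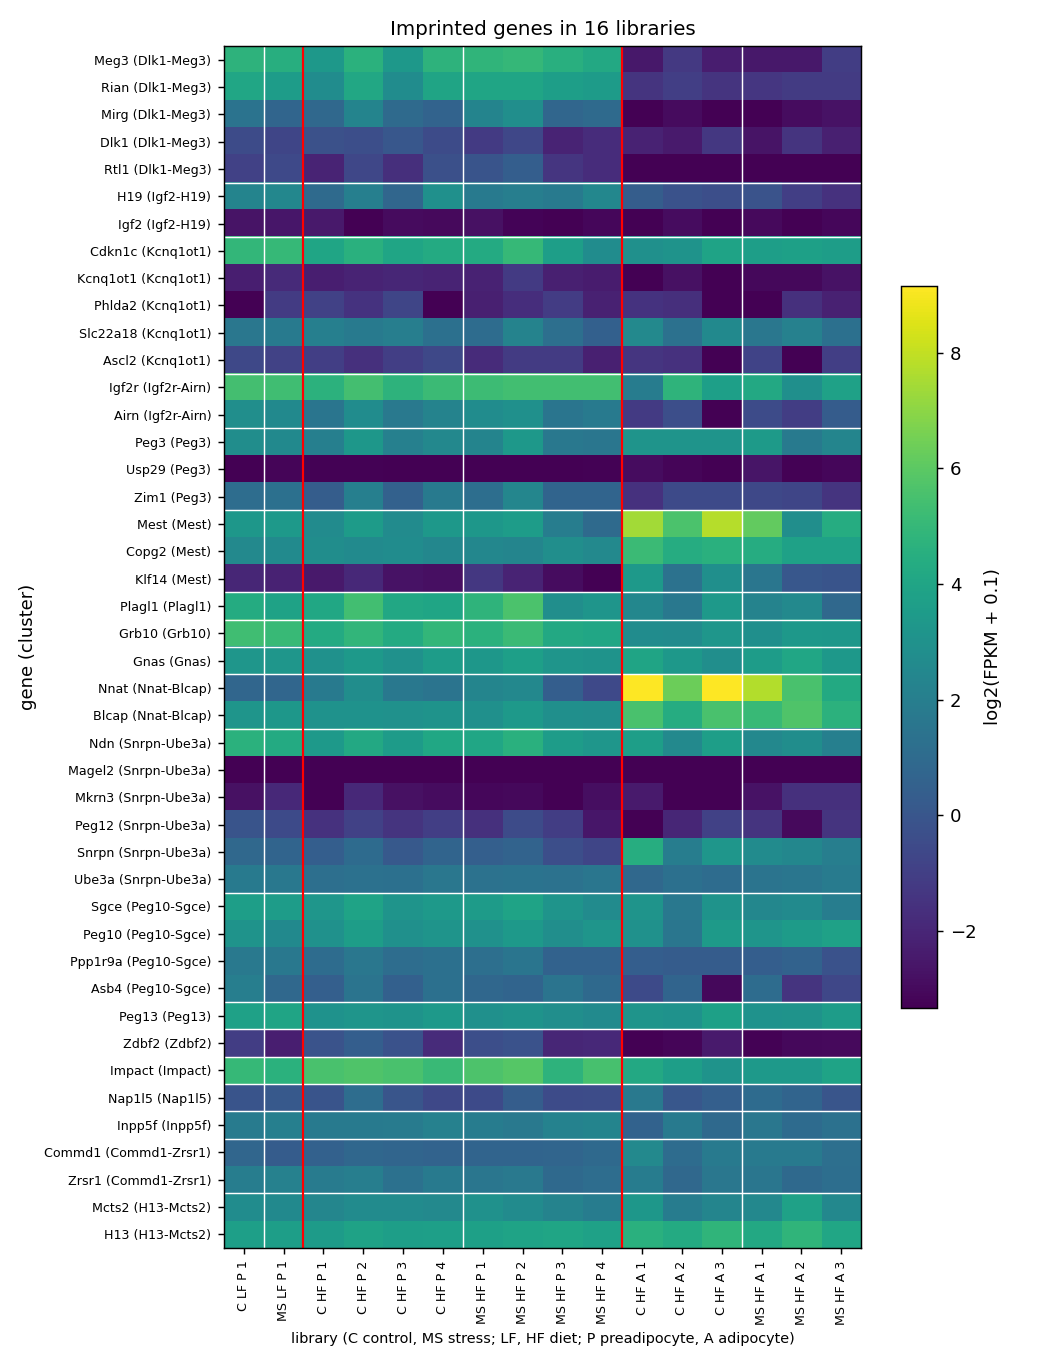
Level of each of the 44 imprinted genes (one per line, cluster in parentheses) in each of the 16 libraries, as log2(FPKM + 0.1), with red lines between low-fat preadipocytes, high-fat preadipocytes and mature adipocytes. Meg3, Rian and Mirg darken in all 6 mature adipocyte libraries, Nnat and Mest reach their brightest values in control adipocyte libraries 1 and 3, and Magel2 is at 0 throughout.

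The first comparison asked how imprinted genes differ between mature adipocytes and preadipocytes on the high-fat diet. The noncoding RNAs of the Dlk1-Meg3 cluster were nearly absent from mature adipocytes, while Nnat, Klf14 and Mest were many times higher there. Of 39 genes with enough counts to be tested, 26 (66.7%) passed an adjusted p of 0.05 in edgeR, 8 higher and 18 lower in mature adipocytes. Across all 16101 genes tested, 61.5% passed, 26.9% higher and 34.6% lower, so the share among imprinted genes was near that of the table as a whole. Their median log2 fold change was -0.73 against -0.22 over all genes, and their median absolute log2 fold change was 1.40 against 0.96. The 2 fractions did not overlap in any sample for 18 of the 39 genes (46.2%), 7 higher and 11 lower, against 39.3% of all genes. The 5 genes below the count filter were Igf2, Phlda2, Usp29, Magel2 and Mkrn3. Counts were taken over whole fractions, so fewer cells of a type and less RNA per cell cannot be told apart.

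By parental origin, 2 of 12 tested maternally expressed genes were higher in mature adipocytes and 6 were lower. Of 19 paternally expressed genes, 3 were higher and 9 lower, and of 8 genes imprinted only in some tissues or isoforms, 3 were higher and 3 lower. Both parental origins thus had members in both directions. Within clusters, all 5 genes of Dlk1-Meg3 were lower, all 3 of Mest and both of Nnat-Blcap were higher, and Snrpn-Ube3a had 1 higher, 1 lower and 2 not called.

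Meg3, a maternally expressed long noncoding RNA, ranged from 181 to 561 CPM in the 7 high-fat preadipocyte samples (median 438 CPM) and from 1.28 to 7.55 CPM in the 6 mature adipocyte libraries (median 1.66 CPM). The lowest preadipocyte sample was the near-identical control pair, and it was still far above every adipocyte library. In mature adipocytes Meg3 was lower by 128-fold (log2 fold change -7.00 ± 0.55 SE, edgeR adjusted p = 1.45e-07). Rian, the neighbouring transcript that hosts small nucleolar RNAs, ranged from 121 to 319 CPM (median 286 CPM) in preadipocytes and from 4.79 to 7.99 CPM (median 6.17 CPM) in adipocytes. The fractions did not overlap, and the fall was 41.7-fold (log2 -5.38 ± 0.26, adjusted p = 4.28e-09). Mirg, which hosts a large miRNA group, had 10.8 to 51.6 CPM (median 13.5 CPM) in preadipocytes and 0 to 0.403 CPM in adipocytes, with 3 of the 6 adipocyte libraries at 0. It was 159-fold lower (log2 -7.31 ± 0.70, adjusted p = 8.45e-07), a fold that rests on 0 to 8 counts per adipocyte library. Over the alternative fits the log2 fold change of Mirg ran from -7.85 to -4.62.

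The protein-coding genes of the cluster are paternally expressed. Rtl1, a retrotransposon-derived gene, had 1.15 to 7.63 CPM in preadipocytes (median 3.23 CPM) and no count in any of the 6 adipocyte libraries. Against a floor of 3 counts per library (mean 0.181 CPM) its adipocyte mean was at least 19.7-fold lower (edgeR adjusted p = 3.91e-05). Of the 7 miRNA hairpins inside Rtl1, only 1 is on its strand. The strand setting of the counting is not given, so reads from the opposite strand cannot be told apart from those of Rtl1. Dlk1, the preadipocyte factor 1 protein, was low in both fractions, 0.74 to 4.80 CPM (median 3.01 CPM) against 0.354 to 1.72 CPM (median 0.715 CPM). The fractions overlapped for Dlk1, and its difference was the smallest of the cluster (log2 -1.51 ± 0.49, adjusted p = 0.0149). Without control adipocyte libraries 1 and 3, Dlk1 no longer passed (log2 -1.43, adjusted p = 0.0518), nor did it among stress libraries alone (log2 -0.87, adjusted p = 0.327).

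The FPKM ratio of Meg3 to Rian was 1.39 to 1.96 in the preadipocyte libraries and 0.21 to 1.08 in the adipocyte libraries, so the 2 transcripts did not fall by the same factor. Summed progenitor markers were also far lower in the adipocyte libraries (811 to 1960 CPM, given above), with all 10 of 10 markers lower. The part of carried-over progenitor RNA in the low adipocyte values of this cluster was not tested.

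**Figure D2:**
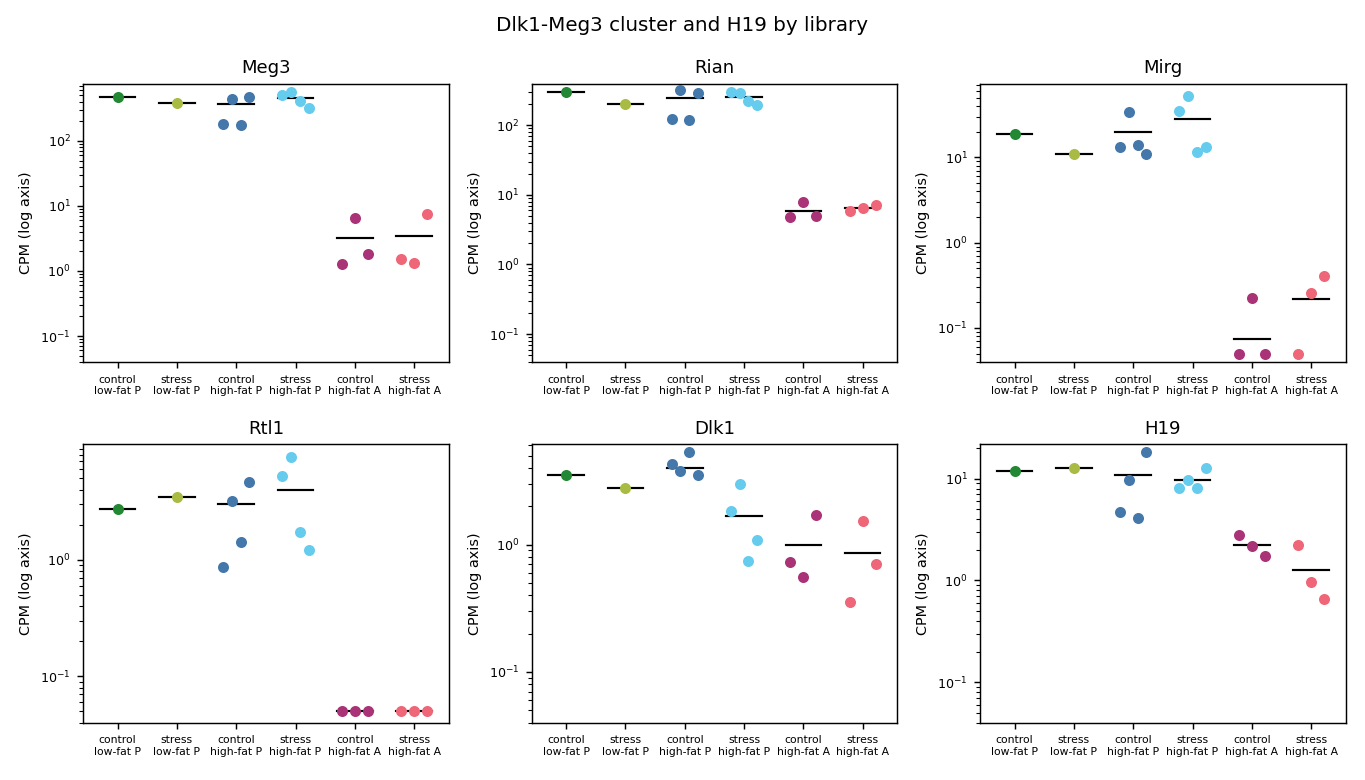
CPM on a log axis in each library for 5 genes of the Dlk1-Meg3 cluster and H19, by group (P preadipocyte, A mature adipocyte), with a line at the group mean and values under 0.05 CPM drawn at 0.05. Meg3 lies at 178 to 561 CPM in every preadipocyte library and at 1.28 to 7.55 CPM in every adipocyte library, and Rtl1 is at 0 in all 6 adipocyte libraries.

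H19, Airn and Kcnq1ot1 were lower in mature adipocytes too. H19, a maternally expressed RNA, had 4.37 to 18.4 CPM (median 9.60 CPM) in preadipocytes and 0.655 to 2.79 CPM (median 1.94 CPM) in adipocytes, with no overlap, a 6.42-fold difference (log2 -2.68 ± 0.39, adjusted p = 3.75e-05). Its neighbour Igf2, a fetal growth factor, was not above 0.478 CPM in any library. Airn, the paternally expressed RNA that runs antisense to Igf2r, had 9.62 to 26.6 CPM (median 17.0 CPM) against 0 to 4.48 CPM (median 1.91 CPM) and was 9.03-fold lower (log2 -3.17 ± 0.56, adjusted p = 0.000202). Igf2r was lower as well, 242 to 387 CPM (median 369 CPM) against 33.7 to 286 CPM (median 131 CPM), with overlapping fractions (log2 -1.40 ± 0.36, adjusted p = 0.00398), and did not pass among control libraries alone (log2 -1.15, adjusted p = 0.169). Since the strand setting of the counting is not given, reads of Airn and Igf2r cannot be told apart where the genes overlap. The same holds for Kcnq1ot1, a paternally expressed RNA antisense to Kcnq1, which had 8.42 to 31.1 CPM (median 12.0 CPM) against 0 to 5.39 CPM (median 1.93 CPM). The fractions did not overlap and the difference was 6.21-fold (log2 -2.64 ± 0.76, adjusted p = 0.0077), but among control libraries alone it no longer passed (log2 -2.90, adjusted p = 0.135).

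The other genes of the Kcnq1ot1 cluster were not called. Cdkn1c, which encodes the cell cycle inhibitor p57, had 13 to 65.3 CPM in preadipocytes and 15.3 to 30.1 CPM in adipocytes, and the ranges overlapped (log2 -0.67 ± 0.29, adjusted p = 0.0545). It did pass in DESeq2 (adjusted p = 0.045), and when stress preadipocyte library 3 or 4 was left out (adjusted p = 0.0381 and 0.00589). Slc22a18 and Ascl2 had adjusted p-values of 0.272 and 0.72.

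Several imprinted genes for transcription factors and signalling proteins were lower in mature adipocytes. Plagl1, a zinc finger transcription factor, had 54.5 to 384 CPM (median 136 CPM) in preadipocytes and 15.1 to 78.8 CPM (median 41.3 CPM) in adipocytes, with overlap through stress preadipocyte libraries 3 and 4 (4.77-fold lower, log2 -2.25 ± 0.47, adjusted p = 0.000787). Zim1, a zinc finger gene of the Peg3 cluster, had 10.2 to 41.2 CPM (median 17.6 CPM) against 1.95 to 5.38 CPM (median 4.45 CPM) and did not overlap (5.77-fold lower, log2 -2.53 ± 0.38, adjusted p = 4.61e-05). Zdbf2 had 1.92 to 15.3 CPM (median 8.88 CPM) against 0 to 1.12 CPM (median 0.211 CPM) and did not overlap (25.6-fold lower, log2 -4.68 ± 0.80, adjusted p = 0.000155). That fold rests on 0 to 13 counts per adipocyte library, and over the alternative fits the log2 fold change ran from -5.35 to -2.22. Of these 3 genes, only Plagl1 overlapped between the fractions.

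Grb10, an adaptor that dampens insulin and IGF receptor signalling, fell from 144 to 324 CPM in preadipocytes to 59.2 to 95 CPM in adipocytes without overlap (log2 -1.59 ± 0.20, adjusted p = 1.04e-05). Impact fell likewise, from 88.1 to 198 CPM to 28.5 to 61.2 CPM (log2 -1.83 ± 0.23, adjusted p = 9.21e-06). The remaining genes that were lower changed by less: Ndn, a MAGE family protein, by -1.06, Sgce, the sarcoglycan epsilon gene, by -0.90, Ppp1r9a, an actin-binding neurabin, by -0.90 and Inpp5f, a phosphoinositide phosphatase, by -0.73 on the log2 scale. For these 4 the fractions overlapped. Among control libraries alone Ndn, Sgce and Inpp5f did not pass (adjusted p = 0.233, 0.159 and 0.197), and among stress libraries alone Ppp1r9a and Inpp5f did not (adjusted p = 0.12 and 0.0821).

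In the other direction, Nnat had 0.999 to 12.0 CPM (median 5.94 CPM) in preadipocytes and 37.4 to 1020 CPM (median 297 CPM) in mature adipocytes. Every adipocyte library was above every preadipocyte sample, and the mean difference was 52.4-fold (log2 5.71 ± 0.76, adjusted p = 1.7e-05). Blcap, the gene on the opposite strand around Nnat, had 20.9 to 32.3 CPM (median 24.0 CPM) against 71.6 to 160 CPM (median 127 CPM) and was 4.64-fold higher (log2 2.21 ± 0.20, adjusted p = 5.37e-07). The FPKM ratio of Nnat to Blcap ran from 0.73 to 12.0 across the adipocyte libraries, so the 2 genes did not keep a fixed ratio. Reads from the overlap of the 2 genes cannot be assigned without strand.

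All 3 genes of the Mest cluster were higher in mature adipocytes. Mest had 7.03 to 45.7 CPM (median 37.5 CPM) in preadipocytes and 27.4 to 841 CPM (median 267 CPM) in adipocytes, and 1 adipocyte library, stress library 2, lay inside the preadipocyte range (8.66-fold higher, log2 3.11 ± 0.59, adjusted p = 0.000361). Klf14, a transcription factor known to act in fat tissue, had 0 to 0.948 CPM (median 0.201 CPM) against 2.77 to 30.5 CPM (median 9.19 CPM) and did not overlap (28.8-fold higher, log2 4.85 ± 0.78, adjusted p = 8.85e-05). Copg2, a coatomer subunit whose gene overlaps the end of Mest on the other strand, had 25.1 to 35.2 CPM against 70.9 to 178 CPM, also without overlap (log2 1.81 ± 0.19, adjusted p = 1.96e-06). Copg2 was the steadiest of the 3 between adipocyte libraries. Reads from the overlap of Mest and Copg2 cannot be assigned without strand.

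Snrpn, a spliceosome protein gene of the Prader-Willi region, had 1.04 to 4.12 CPM (median 2.67 CPM) in preadipocytes and 9.04 to 46.0 CPM (median 13.5 CPM) in adipocytes (6.40-fold higher, log2 2.68 ± 0.37, adjusted p = 2.14e-05). The fractions did not overlap for Snrpn, while Ndn of the same region was lower and Ube3a, a ubiquitin ligase, did not pass (log2 -0.02 ± 0.16, adjusted p = 0.909). Commd1, a copper metabolism gene, and H13, a signal peptide peptidase, were higher by 1.07 and 0.70 on the log2 scale, both without overlap. Zrsr1 and Mcts2, which arose inside Commd1 and H13 and are paternally expressed, were not called (log2 -0.18 and 0.32).

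**Figure D3:**
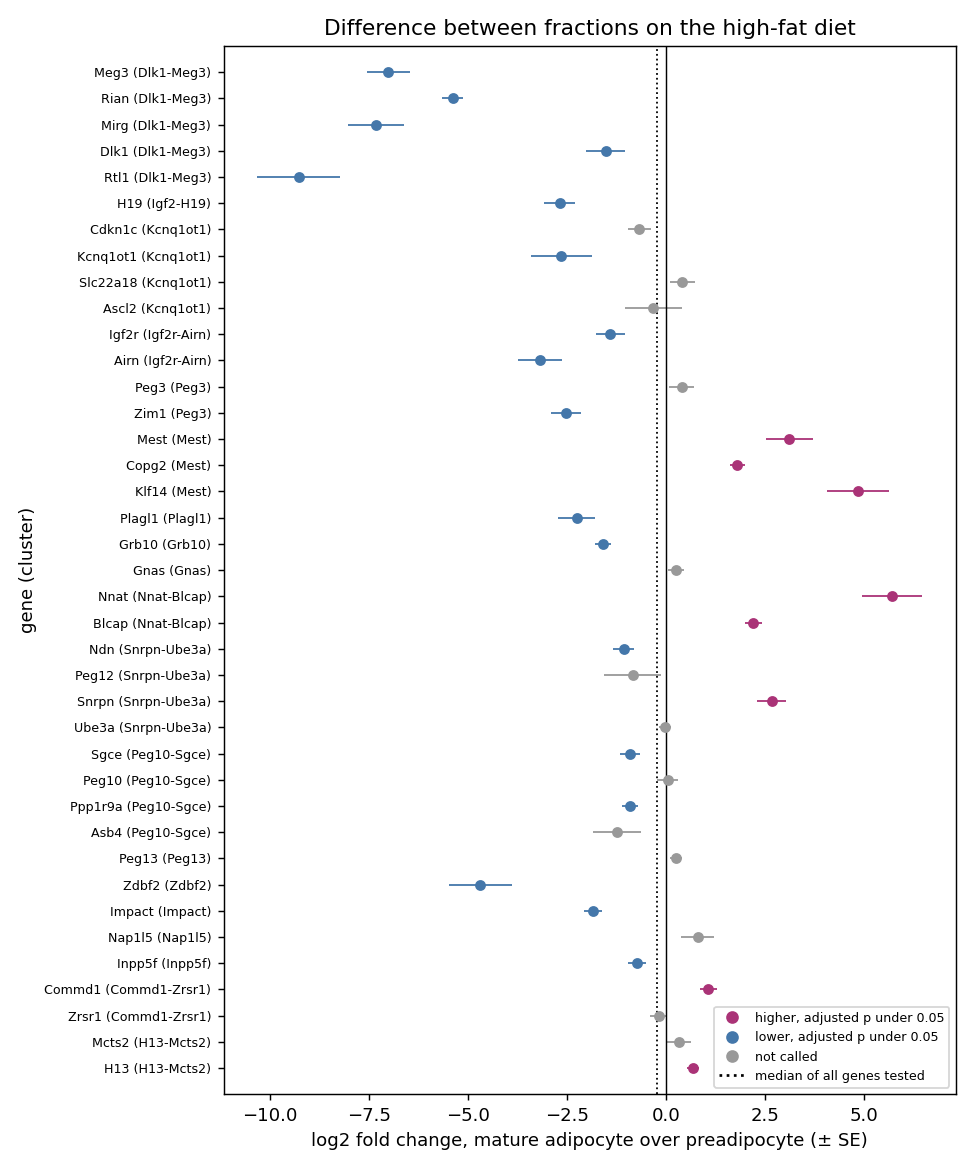
Log2 fold change of mature adipocytes over preadipocytes on the high-fat diet with its SE for the 39 imprinted genes tested, by cluster, with the median of all genes tested as a dotted line. Rtl1, Mirg, Meg3 and Rian lie farthest to the left and Nnat and Klf14 farthest to the right. The point for Rtl1, at 0 in all adipocyte libraries, depends on the small count the fit adds and is not a measured fold.

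The 13 genes that were tested and not called included Gnas, Peg3, Peg10 and Peg13, each with a log2 fold change between 0.05 and 0.40 and overlapping fractions. Gnas, which encodes the stimulatory G protein subunit, had 79.5 to 184 CPM in adipocytes against 85.8 to 142 CPM in the high-fat preadipocyte libraries. Asb4 was not called at log2 -1.22 ± 0.60 (adjusted p = 0.09), with adipocyte libraries from 0.086 to 8.84 CPM, and passed in DESeq2 (adjusted p = 0.0388) and limma (adjusted p = 0.0159). A p that missed the threshold does not show that these levels were equal.

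A second list held 41 further imprinted genes and neighbours of the clusters, drawn up with earlier results of these data known. Of 33 tested, 12 were higher and 14 lower in mature adipocytes, against 26.9% higher and 34.6% lower among all genes. The largest differences were in Slc22a3 and Slc22a2, organic cation transporters beside Igf2r (log2 6.30 and 5.04), and in Smoc1, a secreted matrix protein (log2 5.82). Lower by at least 3 on the log2 scale were Dcn, the matrix proteoglycan decorin and also a progenitor marker (-4.39), Dio3, the thyroid hormone deiodinase at the far end of the Dlk1-Meg3 domain (-4.26), Begain beside Dlk1 (-3.92), Slc38a4 (-3.61), Rasgrf1 (-3.11) and Ddc (-3.05). A further list held 25 genes that set or keep imprints or, like Tet2 and Tet3, remove DNA methylation. All 25 were tested, and 2 were higher and 14 lower, beside the same 26.9% and 34.6% of all genes. Their median log2 fold change was -0.70 against -0.22. Zfp57, whose protein binds the hexamer shown above, was lower (-3.17 ± 0.58, adjusted p = 0.000272), and Ctcfl, the germline relative of the insulator protein CTCF, was higher (5.22 ± 0.62). Dnmt1, the maintenance DNA methyltransferase, did not pass (-0.07 ± 0.35).

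The second comparison asked whether early life stress changed imprinted genes in preadipocytes on the high-fat diet. None of 38 tested genes passed in edgeR (0 of 17129 genes in the whole table, 0%), and DESeq2 and limma on FPKM called none of them either. At an unadjusted p under 0.05 there were 2 imprinted genes and 496 genes in all. Of the 38 genes, 13 had a positive and 25 a negative log2 fold change, with a median of -0.14 against 0.02 over all genes.

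Dlk1 had the smallest p. Its levels were 3.49 to 5.34 CPM in the 4 control libraries (4.26, 3.79, 5.34 and 3.49) and 1.85, 3.01, 0.74 and 1.09 CPM in the 4 stress libraries. Every stress library was below every control library, with group means of 1.67 ± 1.01 CPM (SD, n = 4) and 4.03 ± 0.69 CPM (n = 3), a log2 fold change of -1.29 ± 0.45 (edgeR adjusted p = 0.973). Stress libraries 3 and 4, the ones high in macrophage markers, were lowest, and without them the log2 fold change was -0.80. The low-fat control and stress libraries had 3.52 and 2.79 CPM of Dlk1. Peg13, a noncoding RNA inside Trappc9, had 38.9, 40.7, 39.9 and 50.6 CPM in controls and 35.0, 39.2, 32.1 and 28.2 CPM under stress. With the near-identical pair averaged to 39.4 CPM, its groups did not overlap either, by a margin of 39.4 against 39.2 CPM that the pair's lower library, at 38.9 CPM, does not keep (log2 -0.36 ± 0.14, adjusted p = 0.973). Zrsr1, a splicing factor gene, came next (log2 -0.46 ± 0.21, adjusted p = 0.973), and its groups overlapped. These 2 genes without overlap are 5.26% of the 38, against 3.52% of all genes.

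Stress libraries 3 and 4 stood below the other high-fat preadipocyte samples for many of the genes. They were the 2 lowest of the 7 samples for 16 of 38 imprinted genes (42.1%), among them Plagl1, Mest, Cdkn1c, Nnat, Snrpn and Zdbf2, against 20.5% of all genes tested. Plagl1, for example, had 54.5 and 66 CPM there and 210 and 384 CPM in stress libraries 1 and 2. Mest had 14.8 and 7.03 CPM there and 37.5 and 45.7 CPM in the other pair of stress libraries. This pattern was picked out after the values were seen. Macrophage markers summed to 7200 and 8270 CPM in libraries 3 and 4, and mature adipocyte markers to 85.6 and 52.9 CPM, the lowest of the high-fat preadipocyte libraries. Libraries 3 and 4 also had the lowest sums of all 10 preadipocyte libraries for endothelial markers (214 and 205 CPM against 315 to 882 CPM), mesothelial markers (164 and 131 CPM against 231 to 1320 CPM) and mural markers (289 and 284 CPM against 349 to 847 CPM). The part of these markers in the values of the imprinted genes was not tested. Without the 2 libraries, 0 of the imprinted genes passed.

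The third comparison asked the same in mature adipocytes. None of 35 tested genes passed in edgeR (0 of 14485 genes, 0%), nor in DESeq2 or limma. Unadjusted p-values under 0.05 were found for 4 imprinted genes and 417 genes in all, and the 4 were Klf14, Mest, Nnat and Ndn, all with lower means under stress. Only Ube3a, with 35.1, 53.2 and 40.8 CPM in controls and 62.9, 59.3 and 80.9 CPM under stress, had groups that did not overlap (2.86% of the 35 genes, against 7.06% of all genes), and its log2 fold change was 0.63 ± 0.31 (adjusted p = 1).

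Klf14 had 30.5, 8.32 and 22 CPM in control adipocyte libraries 1 to 3 and 10.1, 2.87 and 2.77 CPM in stress libraries 1 to 3. The groups overlapped between control library 2 and stress library 1 (log2 -1.99 ± 0.64, edgeR adjusted p = 1). With no filter on low counts Klf14 passed (log2 -1.95, adjusted p = 0.0442). Mest had 666, 216 and 841 CPM in controls and 318, 27.4 and 91.0 CPM under stress (log2 -2.02 ± 0.78, adjusted p = 1). Nnat had 1010, 163 and 1020 CPM in controls and 431, 85.7 and 37.4 CPM under stress (log2 -2.03 ± 0.88, adjusted p = 1). In all 3 genes the groups overlapped in the same place, with control library 2 below stress library 1.

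The high control values of these genes came from the 2 control adipocyte libraries of low complexity. Control libraries 1 and 3 were the 2 highest of the 6 adipocyte libraries for 8 of 35 imprinted genes (22.9%), namely Slc22a18, Mest, Copg2, Klf14, Nnat, Ndn, Snrpn and Sgce, against 11.5% of all genes tested. The 8 include Klf14, Mest and Nnat, whose values above had already shown this order, so the share is not independent of them. Without control libraries 1 and 3 the log2 fold changes were -0.67 for Klf14 and -0.58 for Mest, and that of Nnat turned to 0.17. Mature adipocyte markers summed to 37000 and 32600 CPM in control libraries 1 and 3, to 13300 CPM in control library 2, and to 18800, 34000 and 12800 CPM in stress libraries 1 to 3. Mest had 841 CPM in control library 3, 216 CPM in control library 2 and 27.4 CPM in stress library 2. Macrophage markers ran from 1750 to 7760 CPM and endothelial markers from 463 to 2460 CPM over the 6 libraries. The part of mature adipocyte, macrophage or endothelial markers in these values was not tested.

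**Figure D4:**
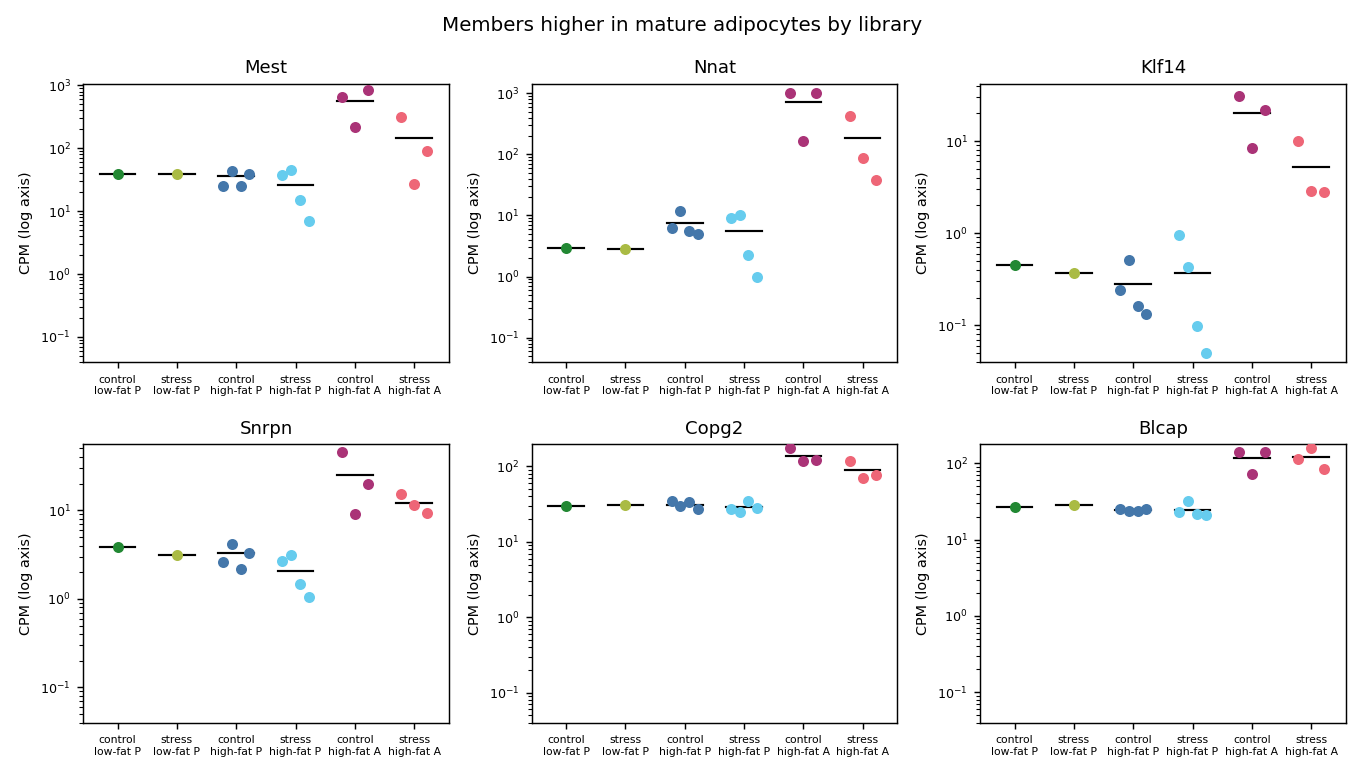
CPM on a log axis in each library for 6 imprinted genes that were higher in mature adipocytes, by group, with a line at the group mean and values under 0.05 CPM drawn at 0.05. Mest, Nnat and Klf14 are highest in 2 of the 3 control adipocyte libraries and spread widely under stress (Nnat 37.4 to 431 CPM), while Copg2 and Blcap spread less.

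Whether the stress effect differed between the fractions was tested with an interaction term. It passed for none of 39 imprinted genes in edgeR (0 of 17948 genes, 0%), and for none of them in DESeq2 or limma. No imprinted gene had an unadjusted p under 0.05, against 873 genes in all. The smallest p-values were those of Ube3a (difference of log2 fold changes 0.62 ± 0.29), Peg10, a retrotransposon-derived gene (0.89 ± 0.49), and Klf14 (-2.39 ± 1.31), each with an adjusted p of 0.934.

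**Figure D5:**
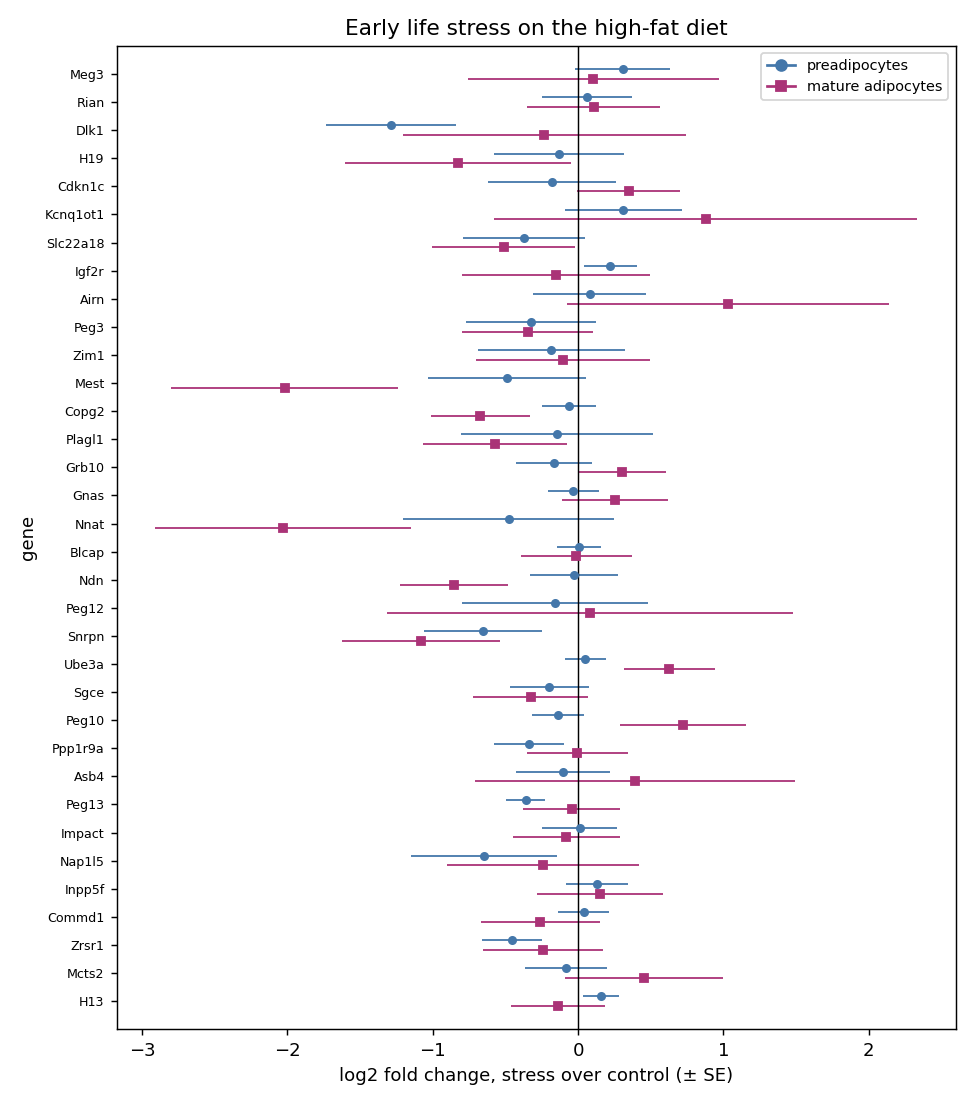
Log2 fold change of stress over control on the high-fat diet with its SE, in preadipocytes (circles) and mature adipocytes (squares), for the 34 imprinted genes tested in both. None passed an adjusted p of 0.05. Dlk1 is lowest in preadipocytes (-1.29), and Mest and Nnat are lowest in mature adipocytes (-2.02 and -2.03), with wide errors.

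Diet was compared in preadipocytes only, in a model that also held the early life treatment, with 1 low-fat library on each side of it. None of 39 imprinted genes passed in edgeR (0 of 18468 genes, 0%), with 4 imprinted genes and 2360 genes in all at an unadjusted p under 0.05. The control and stress low-fat libraries had 65.8 and 70.3 CPM of Peg13, against 28.2 to 50.6 CPM (median 39.2 CPM) in the 7 high-fat samples. Both low-fat libraries were above every high-fat one, and Peg13 was 1.81-fold lower on the high-fat diet (log2 -0.85 ± 0.15, adjusted p = 0.32). DESeq2 called Peg13 (log2 -0.84, adjusted p = 0.00154), the only imprinted gene among 422 genes it called, and limma called none of the imprinted genes. Peg13 lies inside Trappc9 on the same strand, so reads may be shared between the 2 genes.

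The next smallest p-values belonged to Impact, with 112 and 81.5 CPM on the low-fat and 88.1 to 198 CPM on the high-fat diet (log2 0.67 ± 0.27, adjusted p = 0.367), and to Ppp1r9a, with 46.8 and 43.3 CPM against 19.3 to 42.6 CPM (log2 -0.54 ± 0.23, adjusted p = 0.38). Ppp1r9a, Peg13 and Zrsr1 did not overlap between diets, all 3 lower on the high-fat diet, which is 3 of 39 imprinted genes against 16.1% of all genes. Meg3 had 482 and 384 CPM on the low-fat diet, inside the high-fat range. Macrophage markers summed to 1560 and 1860 CPM in the low-fat libraries and to 1490 to 8270 CPM in the high-fat ones. Erythroid markers summed to 2800 and 4030 CPM in the low-fat libraries and to 253 to 2430 CPM in the high-fat ones, with no overlap. All 5 had a negative log2 fold change on the high-fat diet (median -1.48) and 0 were called. The part of either list in these values was not tested.

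Stress and control on the low-fat diet were represented by 1 library each, so no test was made. Of 27 imprinted genes that reached 10 CPM in one of the pair, 18 were lower in the stress library, with a median log2 ratio of -0.15 against -0.09 over 9480 genes at that level. Only Asb4, a ubiquitin ligase adaptor, was past 2-fold, with 373 counts (15.4 CPM) in the control and 143 counts (6.55 CPM) in the stress library, a log2 ratio of -1.23 with a 95% counting interval of -1.53 to -0.96 that covers counting error only. That is 3.7% of the 27 genes, against 2.41% of all genes. On the high-fat diet the log2 fold change of Asb4 under stress was -0.10 ± 0.32.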

How the data were processed

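Bulk RNA sequencing of 16 libraries was analysed. The authors deposited raw counts per gene and FPKM values. STAR 2.6.1d, DESeq2 1.20.0 and edgeR 3.24.3 and the builds mm10 and GRCm38 are named per the submitters' processing notes. Which program counted the reads, with which annotation and whether by strand, is not given in the sources used here, so reads of overlapping genes may be shared.

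Deposited counts were scaled with TMM factors to CPM and tested with edgeR 4.0.16 (R 4.3.3, filterByExpr, robust quasi-likelihood F tests) over all genes, with Benjamini-Hochberg adjustment at 0.05. The SE is the absolute log2 fold change divided by the square root of F. The fraction model had early life treatment as a covariate and used the 14 high-fat libraries, with control preadipocyte libraries 1 and 3 summed to 1. In the means and ranges that pair enters as its average. Alternatives were size factors of the DESeq2 type, DESeq2 1.42.0, limma 3.58.1 on log2(FPKM + 0.1), no filter or a minimum of 1 CPM, libraries left out, 1 treatment only and a replicate block. The fits were also run on simulated counts with the same dispersion for every gene, which need not match the spread between these libraries.

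The imprinted genes, clusters and gene lists were chosen with earlier results of these data known. All 44 genes could be named. The lowest, median and highest values were given for those called between fractions with a log2 fold change of at least 2 and a mean of at least 1 CPM. Elsewhere the 3 smallest p-values were named, with values per library, ranges or fold changes; others appear by range, count or as examples. Promoters outside the Dlk1-Meg3 and Igf2-H19 clusters were searched after the data were seen. Coordinates are those of the deposited table.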

Additional observations from a re-analysis of the deposited data

Results flagged for a closer look

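In 37 sets of values (a gene in a group of 4 libraries), the most extreme library was compared with the rest by Dixon's test, which flags about 5% of such sets by chance, and 2 were picked out. Kcnq1ot1 had 31.1 CPM in stress high-fat preadipocyte library 2, against 8.42 to 11.9 CPM in the other 3 libraries of that group. Nap1l5, a paternally expressed gene inside Herc3, had 2.12 CPM in the same library, against 1.08 to 1.13 CPM in the other 3. Both genes overlap a gene on the opposite strand.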

How the results depend on the processing

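Between fractions, the number of imprinted genes called stayed between 21 and 28 (26 as reported) over all alternatives, while the number over all genes fell from 9905 to 5998 with control libraries only. With control libraries only, Kcnq1ot1, Igf2r, Ndn, Sgce and Inpp5f were lost; with stress libraries only, Dlk1, Ppp1r9a and Inpp5f were lost and Peg10 and Peg13 gained; without control adipocyte libraries 1 and 3, Dlk1 and Inpp5f were lost; leaving out 1 library at a time gave 25 to 27 (without stress adipocyte library 2, Inpp5f was lost, adjusted p = 0.059; Peg13 was gained without control adipocyte library 1, Asb4 without control library 2 or stress library 1, Gnas without control library 3, Nap1l5 without control preadipocyte library 2 and Cdkn1c without stress preadipocyte library 3 or 4). For the genes singled out in each comparison by size or smallest p, 539 of 543 alternative values kept their direction and side of the threshold; among the other genes, besides the changes above, DESeq2 gained Cdkn1c and Asb4 between fractions, limma Asb4 and the fit with no low-count filter Usp29. The exceptions were Kcnq1ot1 between fractions in control libraries only (-2.90, adjusted p = 0.135), Nnat under stress in mature adipocytes without control libraries 1 and 3 (reversed, 0.17, adjusted p = 0.999), Klf14 in the same comparison with no low-count filter (-1.95, adjusted p = 0.0442; 1 imprinted gene and 51 genes called) and Peg13 between diets in DESeq2 (-0.84, adjusted p = 0.00154; 1 imprinted gene and 422 genes called). The causes were not tested. The stress, interaction and diet comparisons otherwise called 0 imprinted genes under every alternative run, including each library left out in turn; over all genes DESeq2 called 4 under stress in preadipocytes, 9 in mature adipocytes and 3 in the interaction.

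Same-numbered libraries were not shown to be paired: the correlations of their deviations ran from -0.188 to 0.138 between fractions, -0.0665 to 0.333 between treatments in preadipocytes and -0.247 to 0.0297 in mature adipocytes. With a replicate block and the near-identical pair as 2 libraries, 28 imprinted genes were called between fractions (Cdkn1c and Asb4 gained, adjusted p = 0.0329 and 0.0443) and 0 under stress in preadipocytes; with the block alone, 0 were called under stress in mature adipocytes. With the pair as 2 libraries and no block, 26 were called between fractions. Genes below 1 CPM, such as Klf14 in preadipocytes, rest on few counts, and stress differences of their size may go undetected at this depth and number of libraries.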
